A study of Homo sapiens with 8 samples.

Results

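The ETS family is a group of transcription factors that share a winged helix DNA-binding domain, the ETS domain, which reads a GGAA core. Where they bind and which partners they bind with differ between branches of the family. ETS1 and ETS2 respond to RAS/ERK signalling through a phosphorylated site and a pointed domain, ETV4 and ETV5 form the PEA3 branch, ELK3 and ELK4 are ternary complex factors that bind with serum response factor, and ELF1, ELF3 and EHF form the ELF and epithelium-specific branches. GABPA is the DNA-binding subunit of GABP, a factor of housekeeping promoters that works with GABPB subunits. Genes of this family can themselves carry ETS sites, so a factor of the family may occupy its own gene or that of a relative.

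The occupancy of 10 ETS family genes was read from ChIP-seq peak lists of DU145, a prostate cancer cell line, and PANC1, a pancreatic cancer cell line. The genes were ETS1, ETS2, ELF1, ELF3, EHF, ETV4, ETV5, ELK3, ELK4 and GABPA, with 11 starts in hg19, since ETS1 was given 2. A peak was counted for a gene when its nearest edge lay within 50 kb of a start. Of 24078 peaks in the 7 lists, 28 did so. DU145 chromatin was precipitated with antibodies to ETS1, ELF1, ELK4, GABPA or JUND, an AP-1 subunit, and PANC1 chromatin with an antibody to ETS1. There was 1 sample per factor and cell line, and the labels name no treatment, genotype or replicate culture. The culture text mentions serum-containing medium, with puromycin for selected cells, and does not say which samples were selected. The DU145 ETS1 sample has 2 lists, called list 1 and list 2 here (the latter marked R2), and an ETS1 region is a merged stretch of overlapping peaks that contains a peak of each. With single samples and no score or read count per peak, the depth is unknown and no difference between conditions could be tested. The starts are rounded to 1 kb, so a distance can be off by up to 500 bp.

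DU145 ETS1 was found at most of these genes, and nearly always at the start itself. An ETS1 region lay within 50 kb of 7 of the 10 genes, while 18.2% of all 100 kb bins of the genome held one. The 7 were ETS1, ETS2, ELF3, ETV5, ELK3, ELK4 and GABPA, and each had an ETS1 region within 1 kb of a start. ELF1, EHF and ETV4 had none within 50 kb, which for ELF1 depends on the start used, as described with that gene. GABPA lay near 2 genes (6.8% of bins), at the starts of ELK4 and of GABPA itself, the latter next to the start of ATP5PF. ELK4 lay near 1 gene (1.08% of bins), 25.4 kb from ETS2, and ELF1 lay near none (0.825% of bins). As a group, ELF1, ELK4 or GABPA was near 3 genes (7.48% of bins). JUND was near 4 genes (3.48% of bins), namely ETS1, ETS2, ELK3 and GABPA, and PANC1 ETS1 was near ETS2 alone (0.979% of bins).

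The 2 DU145 ETS1 lists gave nearly the same genes, 8 for list 1 (21.1% of bins) and 7 for list 2 (19.7% of bins), the difference being ETV4. The labels do not say whether list 2 is a second precipitation or another call on the same reads. Median peak widths were 1173 bp in list 1 and 497 bp in list 2. The agreement is therefore not read as replication. At the finer scale of 2 kb bins, 0.906% held an ETS1 region, against 7 of the 11 starts with one within 1 kb. The bins are fixed and cover the span of the lists, gene-poor stretches included, while each window here is centred on a gene start. They are therefore a low baseline and do not show that ETS family genes differ from other genes.

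**Figure D1:**
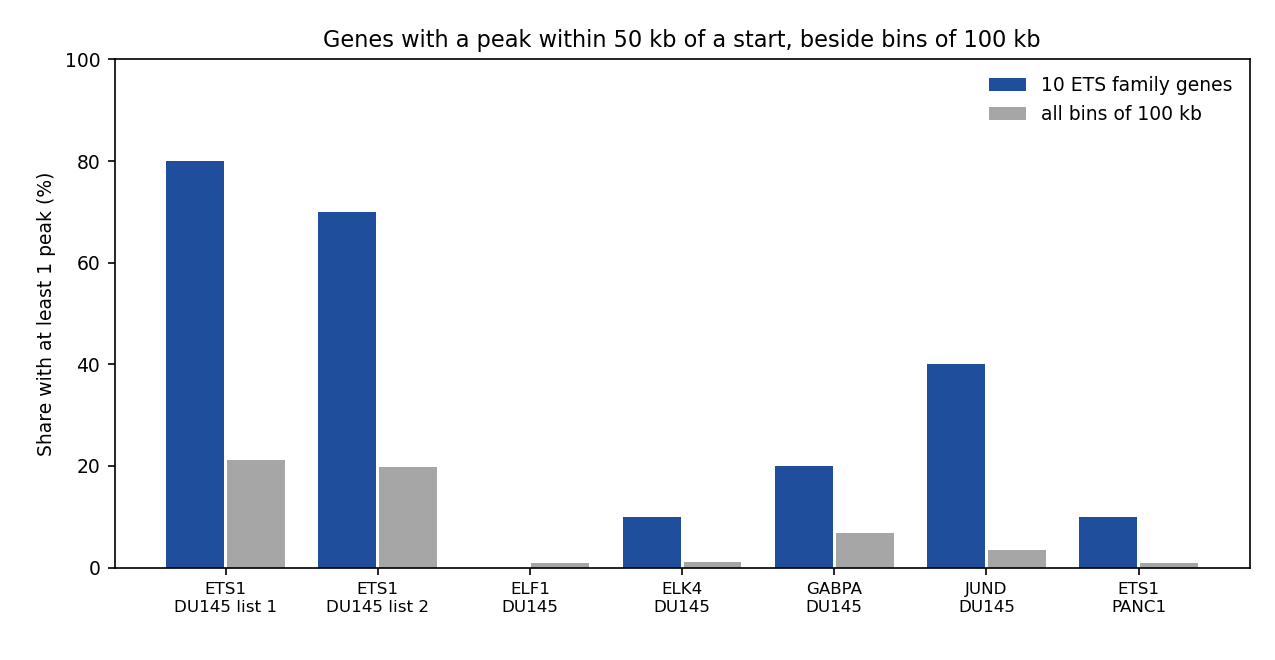
Share of the 10 ETS family genes with at least 1 peak within 50 kb of a start (blue) beside the share of all 100 kb bins with at least 1 peak (grey), in percent, for each of the 7 lists. ETS1 list 1 reaches 8 of 10 genes and list 2 reaches 7, while ELF1 reaches none.

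Promoter sequences are shown for 4 genes. That of ELF1 is its farthest upstream RefSeq start, which is not taken to be the start from which its peaks were measured. RefSeq windows (GRCh38.p14, 250 bases before to 50 after a start) were found for 7 of the 10 genes, as 12 windows. The windows searched are not in the build of the peaks, and no coordinate was converted, so whether a given base lies under a peak was not determined. GABPA and ELK4 are shown because, among genes with a RefSeq window, their starts had peaks of the most DU145 factors within 1 kb (3 and 2), GABPA being one of them at both, ELF3 because it had the widest ETS1 region of the set, and ELF1 because peaks lay far from the start used for it. Each sequence below is the 250 bases before the start, 5′ to 3′ on the gene's strand. Capitals mark every GGAA core, its reverse complement TTCC, and the whole of CCGGAAGT or ACTTCCGG where present. The stretches are chr1:205632012-205632261 on the minus strand for ELK4, chr21:25734722-25734971 on the plus strand for GABPA, chr1:202010337-202010586 on the plus strand for ELF3 and chr13:41061387-41061636 on the minus strand for ELF1.
ELK4: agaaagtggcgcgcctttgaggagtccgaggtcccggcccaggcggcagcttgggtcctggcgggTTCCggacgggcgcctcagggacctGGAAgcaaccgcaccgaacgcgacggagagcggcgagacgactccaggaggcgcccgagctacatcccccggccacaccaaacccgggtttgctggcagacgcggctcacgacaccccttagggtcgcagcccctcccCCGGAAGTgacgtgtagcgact
GABPA: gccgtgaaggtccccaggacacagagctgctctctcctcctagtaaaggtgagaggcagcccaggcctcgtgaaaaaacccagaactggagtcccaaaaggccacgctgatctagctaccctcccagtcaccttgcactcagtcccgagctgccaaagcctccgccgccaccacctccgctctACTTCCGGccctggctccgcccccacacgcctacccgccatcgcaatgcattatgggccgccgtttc
ELF3: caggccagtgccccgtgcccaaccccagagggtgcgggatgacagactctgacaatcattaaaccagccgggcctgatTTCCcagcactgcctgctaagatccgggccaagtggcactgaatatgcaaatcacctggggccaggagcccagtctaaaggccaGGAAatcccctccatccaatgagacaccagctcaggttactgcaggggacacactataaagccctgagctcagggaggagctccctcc
ELF1: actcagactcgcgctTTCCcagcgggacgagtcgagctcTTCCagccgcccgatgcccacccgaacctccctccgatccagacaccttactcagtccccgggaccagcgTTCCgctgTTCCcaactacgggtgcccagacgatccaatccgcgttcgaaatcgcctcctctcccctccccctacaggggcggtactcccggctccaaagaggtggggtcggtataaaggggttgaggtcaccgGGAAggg

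The high-affinity ETS site CCGGAAGT, searched on both strands, was present in the windows of ELK4 and GABPA and in no window of the other 5 genes with a RefSeq entry. In ELK4 it begins 22 bases before the start on the gene's strand and in GABPA it lies on the other strand, from 67 to 60 bases before the start. Of all 35116 RefSeq promoter windows of the same length, 4.14% hold it. The related AGGAAGT was found in 2 of the 12 member windows, belonging to ELK3 and ETS2 (8.24% of all windows). Each of these genes also has a window without it, and which window fits the start used was not determined. The GGAA core alone is in 95.5% of all windows and in 10 of the 12 member windows, so it separates little, and ELF3, with the widest ETS1 region, had 2 cores and neither longer form. The AP-1 site TGAGTCA was in none of the 12 member windows (4.95% of all windows). TGACGT, a part of the cyclic AMP response element to which JUND can also bind, was in 4 of the 12 member windows (7.98% of all windows). These belong to EHF, ELF1, ELK4 and ETS2, none of which had a JUND peak within 1 kb of the start used. The RefSeq window of GABPA, a gene with such a peak, held no TGACGT. The ELF1 match is in the window of an inner start and not in the one printed. In ELK4 TGACGT directly follows the ETS site, sharing its last base. A match describes letters in a window and does not show binding.

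At the GABPA gene 4 peaks lay within one ETS1 region, and among them was a GABPA peak. In the RefSeq table the nearest other start is that of ATP5PF, which encodes a subunit of mitochondrial ATP synthase, so the peaks here cannot be assigned to one gene of the pair. The ETS1 region was at chr21:27106611-27108599 (hg19, 1989 bp) and included the start. The GABPA peak, at chr21:27107189-27107689, began 189 bp from the start, the list 2 ETS1 peak 274 bp and the JUND peak 122 bp, all on the same side. All 3 overlapped one another, the GABPA and JUND peaks by 496 bp. The centres of the GABPA and list 2 ETS1 windows were 85 bp apart, against a median of 73 bp (quartiles 29 and 147 bp) over 2319 GABPA peaks with a list 2 centre within 1000 bp. GABPA and JUND met the same ETS1 region at 75 of 8183 sites, or 0.917% (95% Clopper-Pearson interval 0.722 to 1.15%, counting error only). These peaks were also early in their lists, at line 95 of 9984 and line 114 of 9306 for ETS1 and line 32 of 2478 for GABPA, but at line 1171 of 1308 for JUND. No label or header explains the order of lines.

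The ELK4 gene carried ETS1 and GABPA but not ELK4. Its ETS1 region spanned 1640 bp at chr1:205600069-205601708 and included the start, as did the list 2 ETS1 peak and the GABPA peak. The GABPA and list 2 ETS1 peaks overlapped by 431 bp with centres 62 bp apart. They stood at line 1664 of the GABPA list and at lines 1988 and 2159 of the ETS1 lists. The nearest ELK4 peak was 1.48 Mb away. No JUND peak was within 50 kb. In RefSeq the nearest start of another gene to that of ELK4 is that of LOC124904491, and the peaks here are not assigned to ELK4 alone.

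ELK3, the other ternary complex factor of the set and known as a repressor that ERK can turn into an activator, had ETS1 and JUND side by side. The ETS1 region (chr12:96587496-96588777, 1282 bp) included the start. One JUND peak lay 1.42 kb from the start and did not overlap ETS1, with 638 bp between it and the list 1 interval, and another lay 25.4 kb away. The ETS1 peaks stood late in their lists, at line 8336 of list 1 and line 7756 of list 2. No GABPA, ELF1 or ELK4 peak was within 50 kb, the nearest being GABPA at 251 kb.

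ETS1 peaks lay at the second of the 2 starts of ETS1 and not at the first. The region chr11:128391780-128392941 (1162 bp), from line 6918 of 9984 in list 1 and line 5527 of 9306 in list 2, included the start at 128.392 Mb, while the start at 128.457 Mb had no peak of any list within 50 kb, the same region being 64.1 kb away. A JUND peak of 710 bp lay wholly inside the list 1 interval and shared 346 bp with the list 2 window. Its centre was 257 bp from that of the list 2 peak, where the median over 451 JUND peaks near a list 2 centre was 158 bp (quartiles 70 and 344 bp). The nearest GABPA peak was 1.48 Mb away, and the nearest ELF1 and ELK4 peaks were 3.9 Mb and 11.3 Mb away. Of the 4 ETS factors with a list, ETS1 was the only one within 50 kb of this gene.

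ETS2, the closest relative of ETS1, was the gene with the most lists nearby and the one where both cell lines had an ETS1 peak. The PANC1 list holds only 409 peaks, against 9984 and 9306 in the DU145 ETS1 lists. The lack of a PANC1 peak at the other genes therefore says little about the cell lines. The DU145 ETS1 region covered 1866 bp at chr21:40177021-40178886, wider than 86.2% of all ETS1 regions. The list 2 peak ended 33 bp before the PANC1 peak began, and both lay inside the wider list 1 interval. Their centres were 528 bp apart, a distance greater than that of 95.7% of the 305 PANC1 peaks with a list 2 centre within 1000 bp, whose median was 130 bp. The cell lines thus shared the wider list 1 region at ETS2, and the narrow windows did not overlap. The ELK4 peak at 25.4 kb (chr21:40203449-40203948) was the only ELK4 peak within 50 kb of any of the 10 genes, and no ETS1 peak overlapped it. A JUND peak at 47.2 kb was the member peak closest to the 50 kb limit.

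**Figure D2:**
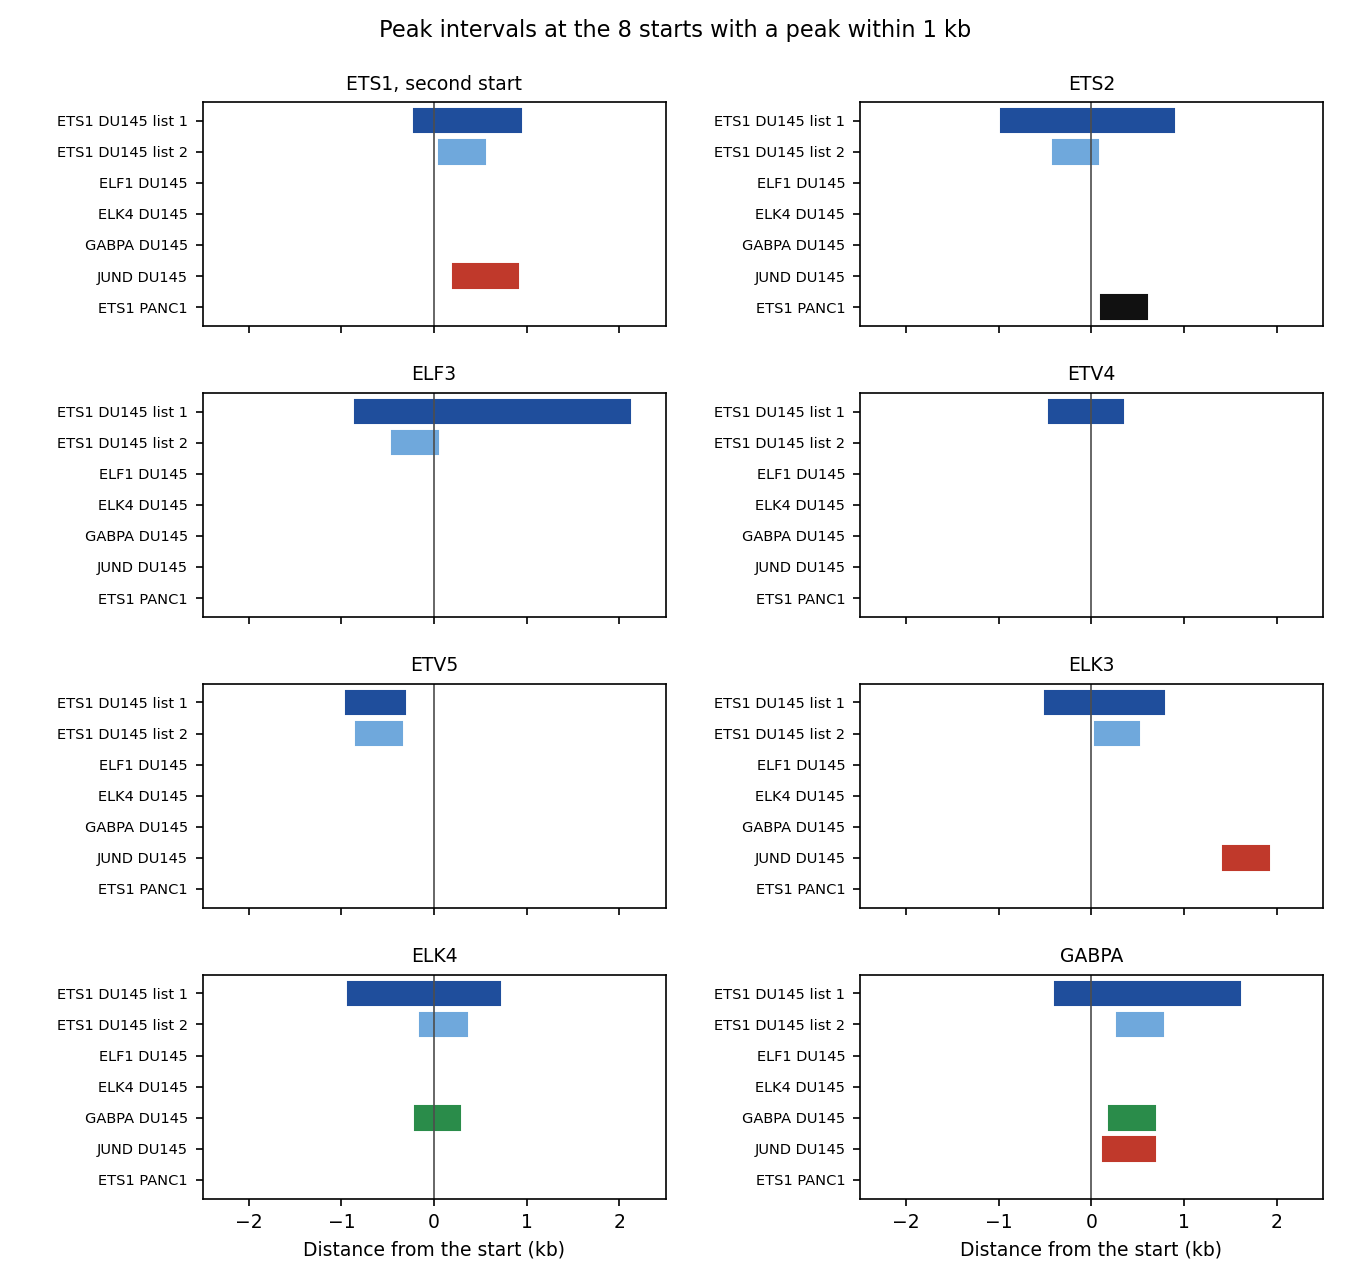
Peak intervals to scale at the 8 starts with a peak within 1 kb, with the distance from the start in kb on the x axis and the 7 lists on the y axis. ETS1 list 1 is present in all 8 panels, GABPA in those of ELK4 and GABPA, and JUND overlaps ETS1 in those of ETS1 and GABPA.

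At the PEA3 genes the ETS1 peaks were narrow and stood late in their lists. At ETV5, whose product is itself induced by ERK signalling in many cells, the ETS1 region was the narrowest of the set (630 bp, chr3:185826052-185826681) and lay 319 bp from the start. It stood at line 8991 of list 1 and line 7249 of list 2, and only 3.18% of all ETS1 regions were narrower. At ETV4, list 1 had a peak of 805 bp over the start at line 8740 and list 2 had none within 50 kb, so ETV4 has no ETS1 region by the rule used here. The next ETS1 region from ETV4 was 61 kb away, and a GABPA peak overlapped it. No JUND, ELF1, ELK4 or PANC1 peak was within 50 kb of either gene.

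ELF3 and EHF, the epithelium-specific pair, stood at opposite ends. ELF3 had 6 ETS1 peaks within 50 kb, 3 in each list, and no peak of another factor. The region at its start was 2970 bp wide (chr1:201979142-201982111), wider than 97.5% of all ETS1 regions, and was at line 1450 of list 1 and line 1411 of list 2. A further region of 1534 bp lay 26.9 kb away. At 7.24 kb and 7.89 kb on the other side each list had a peak, but the 2 peaks were 52 bp apart and so formed no region. In RefSeq the nearest start of another gene to that of ELF3 is that of ELF3-AS1. The region at the ELF3 start is therefore not assigned to ELF3 alone. EHF had no peak of any list within 100 kb. Its nearest ETS1 region was 182 kb away, its nearest PANC1 ETS1 peak 517 kb and its nearest JUND peak 930 kb.

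ELF1 had no peak of any list within 50 kb of the single start used, and the nearest ELF1 peak was 3.94 Mb from it. This absence depends on the start. ETS1 regions lay 59.5 kb away on one side and 78.2 kb away on the other. The latter, chr13:41634224-41636241 (2018 bp), was wider than 90.0% of all ETS1 regions, and a JUND peak overlapped the list 2 peak in it by 449 bp, with centres 45 bp apart. RefSeq gives ELF1 3 starts in GRCh38.p14, and the farthest upstream, printed above with WBP4 as the nearest start of another gene, is 78.5 and 79.1 kb from the inner ones. The region runs from 78.2 to 80.2 kb from the start used, on the side towards higher coordinates, where RefSeq also places the upstream start relative to the inner ones. The start used appears to be an inner one, in which case the region would span the upstream start, and ELF1 would count as occupied by ETS1 and JUND if that start were used. Builds were not converted, so this was not determined. Just beyond the limit at other genes were an ETS1 region 54.8 kb from ELF3, with a GABPA peak overlapping it, and the one 61 kb from ETV4.

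**Figure D3:**
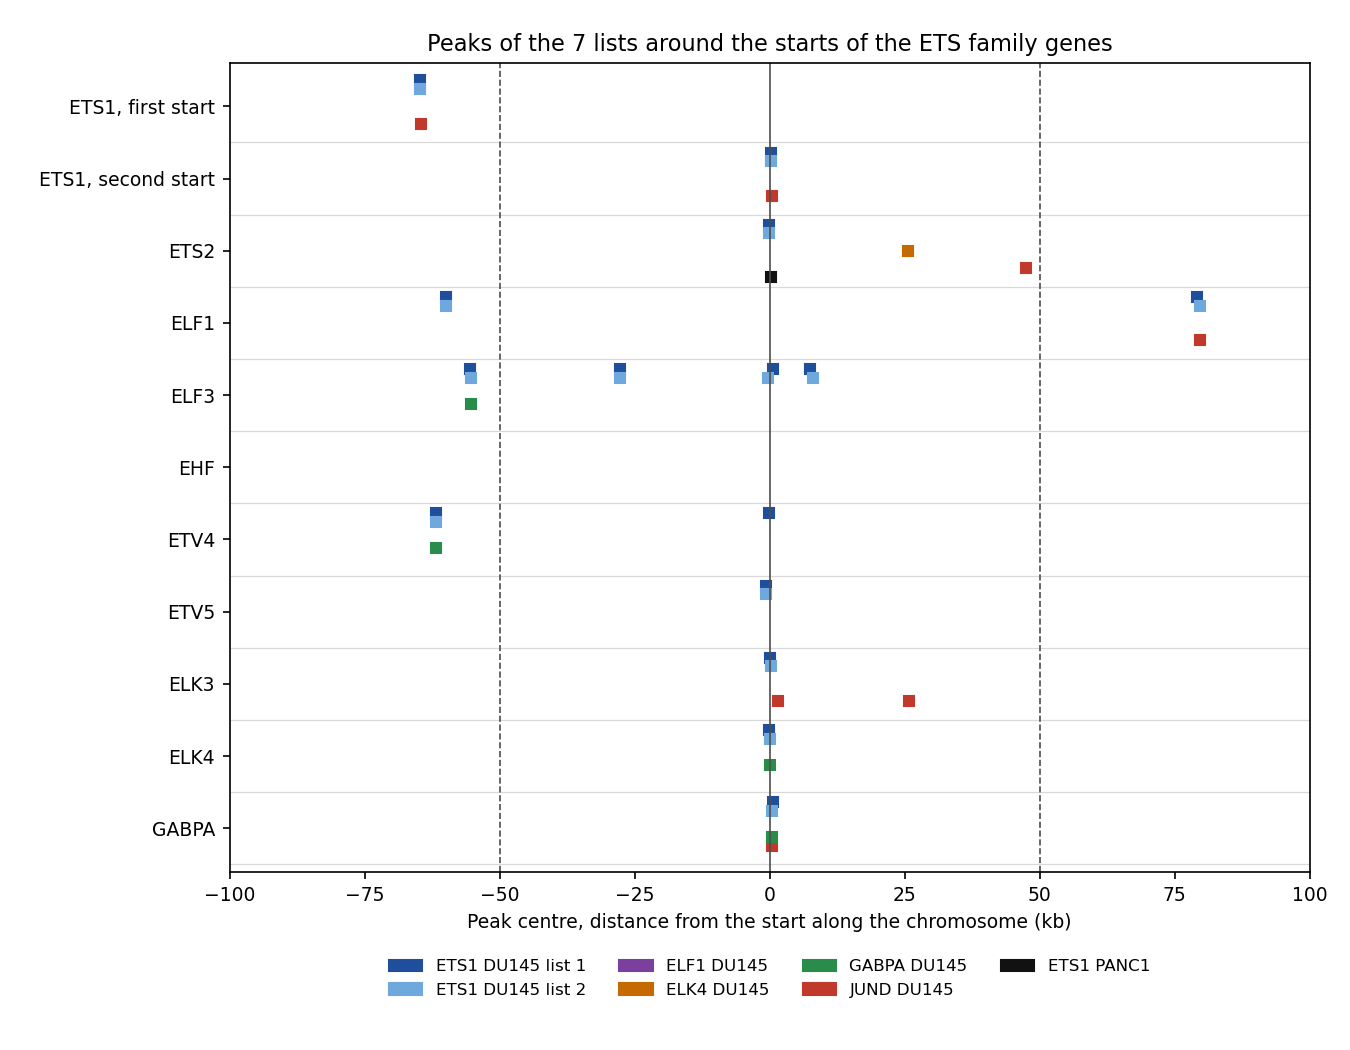
Peak centres of the 7 lists within 100 kb of each start, in kb along the chromosome, with dashed lines at the 50 kb limit. Of the 28 peaks inside the limit 20 lie within 1 kb of a start, EHF has none, and the peaks drawn for ELF1 lie outside the limit.

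A peak at the factor's own gene was found for 2 of the 4 ETS factors that have both a list and a gene in the set. With the wider peaks or the earlier lines of each list this fell to 1, GABPA, whose start neighbours that of ATP5PF. ETS1 and GABPA had a site within 1 kb of a start of their own gene, whereas ELF1 and ELK4 did not have one within 1 Mb. Between the genes of these 4 factors, 3 of 12 ordered pairs other than self were occupied, namely ETS1 at ELK4, ETS1 at GABPA, and GABPA at ELK4. No pair was occupied in both directions. Over all 10 genes, 8 of 36 such pairs had a peak within 50 kb, and ETS1 accounted for 6 of them. Of all 100 kb bins, 18.2% held an ETS1 region, 6.8% a GABPA peak, 1.08% an ELK4 peak and 0.825% an ELF1 peak. These shares are a low baseline, as said above, so the self and pair counts are not read as a trait of the family. The 8 fell to 4 with the wider peaks and to 4 with the earlier lines. The lists differ greatly in length, with 8183 ETS1 regions against 2478 GABPA, 337 ELK4 and 256 ELF1 peaks, so an absent peak in a short list says little.

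**Figure D4:**
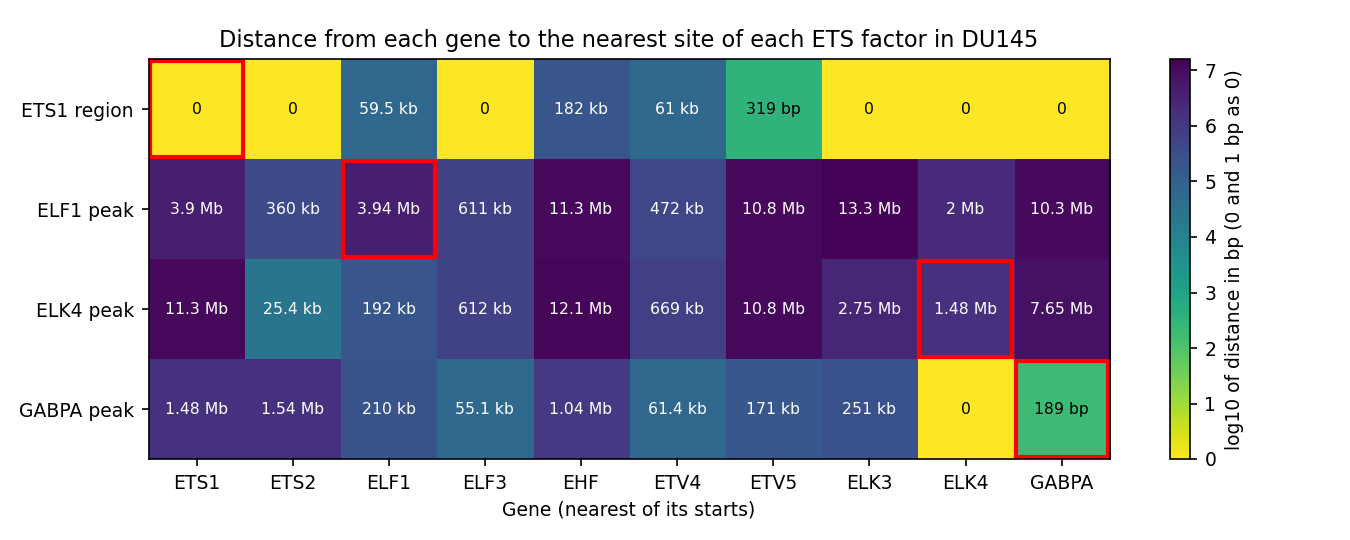
Distance from each of the 10 genes (x axis) to the nearest ETS1 region or ELF1, ELK4 or GABPA peak in DU145 (y axis), coloured by the log10 of the distance in bp, with red frames around a factor at its own gene. Short distances fill most of the ETS1 row, while in the GABPA row ELK4 (0) and GABPA (189 bp) stand out and the ELF1 row has none.

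The 8 ETS1 regions near these genes were set beside all 8183. Another ETS factor met 2 of the 8 (25%, 95% Clopper-Pearson interval 3.19 to 65.1%) and 30.4% of all regions (29.4 to 31.4%). At the 2 of the 8 this factor was GABPA, at the sites described above. Over all regions GABPA met 28.1%. JUND met 2 of the 8, ETS1 and GABPA, with the same interval, against 4.89% of all (4.43 to 5.38%). PANC1 ETS1 met 1 of the 8 (12.5%, 0.316 to 52.7%) against 3.62% (3.22 to 4.04%), and no other list met 4 of the 8 (50%, 15.7 to 84.3%) against 63.8% (62.7 to 64.8%). With 8 regions each interval is wide, and the values are given as a description. The 8 regions had a median width of 1587 bp, against 1273 bp for all, with a range of 630 to 2970 bp. No test was made, because the genes were chosen with results of these data known.

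Which genes count as occupied depended on which peaks of each list were kept. With the wider peaks of each list, ETS1 regions were near 3 genes (ELF3, ELK4 and GABPA), and with the earlier lines of each list near 4 (these and ETS2). Neither setting measures peak strength, since no score is given and the order of lines is unexplained. List 2 peaks had a median width of 497 bp and a maximum of 501 bp, so width hardly ranks them. The ETS1 gene dropped out with a list 1 peak of 1162 bp, against a median of 1173 bp. Bin shares were not recomputed for these shorter lists.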

How the data were processed

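The 7 files deposited by the authors are peak lists for ChIP-seq samples, with chromosome, start and end in hg19 and no score or count per peak. Per the submitters' processing notes the build is hg19 and Bowtie2 2.0.6 is named without a role. For the peak caller, its threshold and the use of input, the labels and file headers give nothing, and the 2 inputs were not analysed here.

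Starts came from the rule that defines the gene set, with a precision of 1 kb. Peaks sharing at least 1 bp were counted as overlapping, and distances run to the nearest edge. The steps were tested on simulated data. Shares carry exact 95% Clopper-Pearson intervals. Python 3.11.15, NumPy 2.4.6, SciPy 1.17.1 and Matplotlib 3.10.9 were used. All 10 genes are named, and promoters are printed for the genes with a RefSeq window whose starts had peaks of the most DU145 factors within 1 kb, with ELF3 and ELF1 added after their values were seen. Other ETS genes and partners (planned as a list) were not located and 100 kb bins served as background, since no hg19 annotation was used here. Members and lists were chosen with earlier results of these data known. Promoter sequences are RefSeq's (GRCh38.p14). In all, 11 alternatives covered the window, the ETS1 lists, the overlap rule and parts of each list taken by width or line order.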

Additional observations from a re-analysis of the deposited data

How the results depend on the processing

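Of 65 values recomputed for 8 results under 11 alternatives, 52 stayed within 1.5 times the main count, or within the main interval for the share, and 13 did not. That interval is so wide (3.19 to 65.1%) that a share staying within it says little about stability. With the wider peaks of each list, ETS1 regions were near 3 genes instead of 7, JUND near 2 instead of 4, self occupancy was left at 1 factor (GABPA) instead of 2, occupied pairs other than self fell to 4 from 8 and ETS1 regions near the genes to 4 from 8. With the earlier lines of each list the same counts were 4, 2, 1, 4 and 4, another ETS factor was near 1 gene instead of 3, and PANC1 ETS1 near 0 instead of 1. Both settings remove peaks by construction, and neither measures peak strength. With a window of 100 kb another ETS factor was near 5 genes. Bin shares were computed for the full lists only, and at no bin size that matches this wider window. The alternative counts above therefore have no matching baseline. The other windows (5 and 10 kb), distances to peak centres, and either ETS1 list alone or their union moved no count by over 1.5 times. Stricter overlap was applied only to the share of ETS1 regions with another ETS factor, which stayed at 25%. Starts of every transcript were not run as an alternative, since no hg19 annotation was used here. Depth is unknown, so an absent peak does not show absent binding.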
